A study of Mus musculus with 12 samples.

Results

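Regeneration-associated effector genes were examined in the retinas of mice treated with PBS, fluvastatin or MBV after optic nerve crush (ONC). They are Gap43, Basp1, L1cam, Chl1, Gal, Crh, Ucn, Cartpt, Ecel1 and Sprr1a, 10 of the 25655 genes in the count tables, chosen by name as known regeneration-associated genes that are not transcription factors. All 10 were found by their symbols. Such genes carry out the growth program of an injured neuron: they build the growth cone, attach the axon to its surroundings, or are released as peptides. In the adult retina the cells whose axons run in the optic nerve are the retinal ganglion cells (RGCs), a small share of all retinal neurons, and after an injury to their axons most of them fail to regrow and die. The neuropeptides among the 10 genes are also made by other retinal neurons, in part by amacrine cells.

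The mice were C57BL/6 (C57BL/6J in the treatment notes), aged 8 to 10 weeks. In every group, the controls included, the left optic nerve was crushed, a single intravitreal injection followed, and the whole retina was taken for total RNA 2 days after ONC. The PBS group (3 libraries) received the vehicle. The fluvastatin group (3 libraries) received a statin, which inhibits HMG-CoA reductase, the rate-limiting enzyme of cholesterol synthesis. The MBV group (3 libraries) received matrix-bound nanovesicles prepared from porcine urinary bladder. The retinas given MBV and fluvastatin together were not analysed here, and no uncrushed retina was among the groups, so no value below measures a response to ONC itself. The labels do not say whether the 3 libraries of a group came from separate animals, so the p-values measure the spread between these samples.

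Levels are given as CPM, the counts on a gene per 1000000 counts of its library, scaled between libraries by the TMM method of edgeR. The libraries held 26325065 to 30992040 counts on genes with PBS, 23634662 to 27098889 with fluvastatin and 21349516 to 26738043 with MBV. The defining markers of the retina were present in each library, with a summed level of 9904 to 14264 CPM for 4 photoreceptor genes and of 648 to 993 CPM for 12 RGC genes. Replicate 3 of the MBV group stood apart, with a summed level of 136 CPM for 10 leukocyte genes against 15.5 to 29.0 CPM in the other MBV libraries and 13.9 to 36.6 CPM in the PBS and fluvastatin libraries. The neutrophil marker Ly6g had 0 counts in all 9 libraries, but other genes of the leukocyte list had some. Cxcr2, a neutrophil gene in the paper, had 3 summed counts in the PBS group, 3 in the fluvastatin group and 15 in the MBV group. In that order, S100a8 had 25, 3 and 25 summed counts, and S100a9 had 18, 5 and 20. Ly6g alone therefore does not show that neutrophil RNA was absent. Lens genes (7 genes) summed to 58.9 to 146 CPM with MBV, 2.20 to 19.8 CPM with fluvastatin and 1.52 to 5.88 CPM with PBS, and their part in any result below was not tested. Of these lists, compared to PBS, 6 of 7 lens genes were called higher with MBV and 1 lower with fluvastatin, 3 of 10 leukocyte genes were called lower with fluvastatin and 0 with MBV, and 4 of 5 pigment cell genes were called lower with each treatment. Of all genes tested, 19.6% were called in either direction with fluvastatin and 26.1% with MBV. The library numbers in the labels form 2 sets. One holds the PBS libraries and those of the combined treatment, not analysed here, and one the fluvastatin and MBV libraries. Treatment and set therefore cannot be told apart in the comparisons with PBS made here. MBV and fluvastatin lie within one set. In RNA of the whole retina, fewer cells of a type and less RNA per cell cannot be told apart.

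Promoter sequences are shown for 5 of the 10 genes: those that passed a test in the comparisons described here (L1cam, Basp1 and Cartpt), Gal, whose level followed the injury transcription factors, and Sprr1a, with 2 matches to the site of the Jun and Fos family. Each is the 250 bases before the RefSeq start site in GRCm38.p6, written 5′ to 3′ on the strand of the gene. All 5 genes lie on the minus strand. Capitals mark matches to a GC box (GGGCGG), a cAMP response element (TGACGTCA) or an AP-1 site (TGANTCA), searched on both strands. Matches of different motifs did not overlap, and 2 of the GC boxes of Basp1 overlapped each other.
L1cam, chrX:73880835-73881084: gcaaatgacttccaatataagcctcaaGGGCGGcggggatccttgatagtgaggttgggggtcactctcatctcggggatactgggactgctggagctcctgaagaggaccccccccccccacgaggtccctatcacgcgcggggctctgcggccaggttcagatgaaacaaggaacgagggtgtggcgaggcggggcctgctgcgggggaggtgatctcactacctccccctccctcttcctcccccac
Basp1, chr15:25413765-25414014: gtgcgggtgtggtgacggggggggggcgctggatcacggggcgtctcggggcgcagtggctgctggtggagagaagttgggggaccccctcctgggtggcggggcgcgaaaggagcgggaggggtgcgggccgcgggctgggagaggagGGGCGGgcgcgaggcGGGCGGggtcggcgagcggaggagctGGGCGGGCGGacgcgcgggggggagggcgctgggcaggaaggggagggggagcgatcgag
Gal, chr19:3414545-3414794: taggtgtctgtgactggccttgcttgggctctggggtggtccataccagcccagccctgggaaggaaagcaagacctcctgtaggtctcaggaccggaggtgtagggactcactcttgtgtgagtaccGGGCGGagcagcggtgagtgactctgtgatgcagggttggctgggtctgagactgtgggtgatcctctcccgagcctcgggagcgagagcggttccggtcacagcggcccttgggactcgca
Cartpt, chr13:99900684-99900933: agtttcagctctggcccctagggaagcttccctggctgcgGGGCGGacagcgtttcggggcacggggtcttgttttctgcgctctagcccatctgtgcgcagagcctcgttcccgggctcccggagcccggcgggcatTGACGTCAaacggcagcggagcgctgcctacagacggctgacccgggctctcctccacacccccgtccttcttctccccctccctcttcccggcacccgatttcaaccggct
Sprr1a, chr3:92485882-92486131: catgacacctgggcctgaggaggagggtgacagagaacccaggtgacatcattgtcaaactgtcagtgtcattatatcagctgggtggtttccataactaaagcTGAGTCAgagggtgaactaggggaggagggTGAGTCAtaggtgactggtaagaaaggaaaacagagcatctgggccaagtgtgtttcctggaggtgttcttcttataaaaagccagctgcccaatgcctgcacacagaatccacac
RefSeq windows were at hand for 8 of the 10 genes. Basp1 had the window richest in G and C, at 78.8%, against a median of 52.4% over 32851 promoter windows, and it held 4 GC boxes. L1cam, Gal and Cartpt each held 1 GC box, a motif found in 32.7% of all windows. The cAMP response element was found in the windows of Cartpt and Ucn and in 1.55% of all windows. In Cartpt it lay 112 to 105 bases before the start site, and in Ucn 44 to 37 bases before it. Sprr1a alone among the 8 held AP-1 sites, 146 to 140 and 116 to 110 bases before its start, with the letters TGAGTCA in both. An AP-1 site was found in 6.75% of all windows. These matches are letters in a window and do not show that a factor was bound.

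Compared per length of exon, the 10 genes spanned a wide range in the PBS retina. Basp1 stood highest, at 57.3 ± 3.46 CPM per kb (SD, n = 3), followed by Cartpt at 23.5 ± 1.43 and Gap43 at 18.2 ± 1.54 CPM per kb, and the ranges of these neighbours did not overlap. Sprr1a (9.38 ± 2.40 CPM per kb) and L1cam (9.21 ± 1.37 CPM per kb) overlapped each other. Ecel1, Chl1, Gal and Crh followed at 2.54, 1.85, 1.19 and 0.967 CPM per kb, each overlapping the next. Ucn was last, at 0.139 ± 0.0700 CPM per kb. The first 3 places were the same with fluvastatin and with MBV, although Cartpt and Gap43 overlapped in both. L1cam stood above Sprr1a without overlap in both treated groups, at 13.2 against 8.20 CPM per kb with fluvastatin and 12.4 against 6.18 CPM per kb with MBV.

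**Figure D1:**
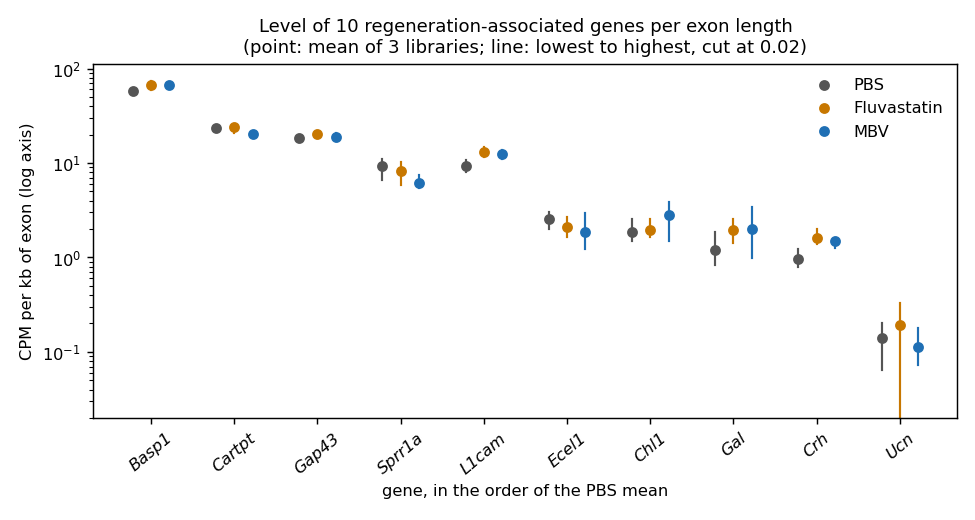
Mean level of each gene per kb of exon (log axis) in the PBS, fluvastatin and MBV retinas, with a line from the lowest to the highest of 3 libraries. Basp1, Cartpt and Gap43 lead in all 3 groups, and Ucn lies below the others at 0.139 CPM per kb with PBS.

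The growth cone proteins come first. Gap43 encodes a membrane-bound protein of the growth cone that binds calmodulin and is a substrate of protein kinase C, and Basp1 encodes a relative of it in function, which also lies under the growth cone membrane. Both were expressed in every library, and Basp1 was slightly higher with either treatment, while Gap43 did not pass the test in any comparison. Gap43 (chr16:42068805-42161014, minus strand, GRCm39) was at 32.6, 30.7 and 36.2 CPM with PBS, 33.5, 39.5 and 38.2 CPM with fluvastatin, and 31.2, 34.7 and 37.6 CPM with MBV. The 3 groups overlapped. Its log2 fold change was 0.16 (SE 0.078, adjusted p = 0.185) with fluvastatin and 0.05 (SE 0.0822, adjusted p = 0.713) with MBV compared to PBS (quasi-likelihood test of edgeR, with p-values adjusted by Benjamini-Hochberg over all genes). The 95% interval of the change with MBV ran from -0.14 to 0.23. With 1 library left out, the change with fluvastatin ran from 0.11 to 0.23 and passed in 1 of 6 fits, without fluvastatin replicate 1 (adjusted p = 0.0393).

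Basp1 (chr15:25363363-25413850, minus strand) was at 114, 109 and 122 CPM with PBS, 120, 150 and 138 CPM with fluvastatin, and 131, 132 and 143 CPM with MBV. All 3 MBV libraries lay above the PBS libraries, while fluvastatin replicate 1 fell within the PBS range. Compared to PBS, the log2 fold change was 0.24 (SE 0.0755, adjusted p = 0.0497) with fluvastatin and 0.22 (SE 0.0553, adjusted p = 0.0170) with MBV, from the same edgeR test. The call with fluvastatin was lost without PBS replicate 1 (adjusted p = 0.145), PBS replicate 2 (0.155), fluvastatin replicate 2 (0.196) or fluvastatin replicate 3 (0.128), and also with scaling by library total alone (0.0578) or a minimum of 10 counts in 2 libraries (0.0543). The call with MBV was lost without PBS replicate 1 (adjusted p = 0.0712) or PBS replicate 2 (0.0624). Of the exon sequence of Basp1, 1642 bases of 2009 lie within Gm63114, a long noncoding RNA gene on the other strand. Whether the counting used strand is not given in the sources used here, so reads of the pair cannot be told apart.

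L1cam and Chl1 are the adhesion molecules of the set. L1cam encodes an immunoglobulin-family protein on axons that promotes outgrowth and bundling and binds ankyrins at its inner end, and Chl1 encodes its close homolog. L1cam was called higher in both treated groups than with PBS, where treatment and library set cannot be told apart. L1cam (chrX:72897384-72939711, minus strand) was at 69.9, 64.1 and 85.0 CPM with PBS, 91.8, 117 and 104 CPM with fluvastatin, and 87.9, 98.2 and 109 CPM with MBV. All 6 treated libraries lay above all 3 PBS libraries. Its log2 fold change was 0.52 (SE 0.106, adjusted p = 0.00801) with fluvastatin, a 1.43-fold level, and 0.42 (SE 0.106, adjusted p = 0.0181) with MBV, a 1.34-fold level. The call with fluvastatin held in all 6 fits that left out 1 library, with log2 fold changes of 0.42 to 0.64. The call with MBV was lost without PBS replicate 1 (adjusted p = 0.0737) or PBS replicate 2 (0.0638). The locus of L1cam overlaps Arhgap4 on the same strand over 158 bases of L1cam exon.

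Chl1 (chr6:103487547-103727172, plus strand) varied widely within each group. It was at 20.5, 20.1 and 34.5 CPM with PBS, 22.5, 22.8 and 34.9 CPM with fluvastatin, and 40.7, 52.3 and 20.1 CPM with MBV. With PBS and fluvastatin the third library was the high one, and with MBV the third library was the low one, the library with the high leukocyte markers. Compared to PBS, the log2 fold change was 0.10 (SE 0.216, adjusted p = 0.789) with fluvastatin and 0.58 (SE 0.315, adjusted p = 0.211) with MBV. With MBV it was 0.28 (adjusted p = 0.549) without MBV replicate 2, 0.88 (adjusted p = 0.0910) without PBS replicate 3 and 0.89 (adjusted p = 0.00345) without MBV replicate 3, so both its size and its call depended on single libraries. L1cam was called and its homolog was not, and the difference between them was not tested.

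Gal, Crh, Ucn and Cartpt are the peptides. Gal encodes galanin, which acts on the receptors of Galr1, Galr2 and Galr3 and rises in many neurons after axon injury. It was a low gene in the whole retina and did not pass the test in any comparison. Gal (chr19:3459915-3464544, minus strand) was at 0.910, 0.819 and 1.82 CPM with PBS, 1.40, 1.83 and 2.54 CPM with fluvastatin, and 1.61, 3.38 and 0.984 CPM with MBV, from 23 to 74 counts per library. The groups overlapped, with PBS replicate 3 high and MBV replicate 3 low, as for Chl1. Its change from PBS, on the log2 scale, was 0.71 (SE 0.335, adjusted p = 0.172) with fluvastatin and 0.74 (SE 0.463, adjusted p = 0.284) with MBV. With 1 library left out, the value with fluvastatin ran from 0.46 (without fluvastatin replicate 3, adjusted p = 0.457) to 1.15 (without PBS replicate 3, adjusted p = 0.0339, the one of 6 such fits that passed). With MBV it ran from 0.15 (without MBV replicate 2, adjusted p = 0.830) to 1.17 (without PBS replicate 3, adjusted p = 0.131), and 0 of 6 passed.

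Crh, the hypothalamic releasing hormone of the stress axis, and Ucn, urocortin, are ligands of one family that act on the receptors of Crhr1 and Crhr2. Crh (chr3:19747565-19749560, minus strand) was at 1.14, 1.06 and 1.63 CPM with PBS, 1.85, 2.62 and 1.82 CPM with fluvastatin, and 2.08, 1.64 and 2.14 CPM with MBV. Each treated library lay above each PBS library, by a narrow margin in the case of MBV replicate 2. The test did not call it: the log2 fold change was 0.73 (SE 0.247, adjusted p = 0.0647) with fluvastatin and 0.61 (SE 0.241, adjusted p = 0.0924) with MBV. It passed without PBS replicate 3 in both comparisons (adjusted p = 0.0381 with fluvastatin and 0.0480 with MBV) and without fluvastatin replicate 1 (0.0440), and not in the other fits with 1 library left out. Over the 6 such fits the value ran from 0.53 to 0.94 with fluvastatin and from 0.50 to 0.82 with MBV. Ucn (chr5:31295407-31296173, minus strand) had 1, 3 and 2 counts with PBS, 4, 0 and 3 counts with fluvastatin, and 1, 2 and 1 counts with MBV. A difference was not detectable at this depth, and no fold is given. The locus of Ucn lies wholly within Trim54, a gene on the other strand, so even these counts are of uncertain origin.

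Cartpt encodes the CART peptides, which in the retina mark certain direction-selective RGCs and some amacrine cells. It was the one gene of the 10 called lower, with MBV compared to PBS. Cartpt (chr13:100034997-100037599, minus strand) was at 54.5, 48.6 and 53.8 CPM with PBS, 45.9, 55.6 and 57.9 CPM with fluvastatin, and 45.3, 46.1 and 45.6 CPM with MBV. The 3 MBV libraries lay close together and below all PBS libraries, and the fluvastatin libraries spanned the PBS range. The log2 fold change compared to PBS was -0.20 (SE 0.0545, adjusted p = 0.0237) with MBV, a 0.868-fold level, and 0.02 (SE 0.0835, adjusted p = 0.883) with fluvastatin. The call was lost without PBS replicate 1 (adjusted p = 0.110), PBS replicate 3 (0.0674), MBV replicate 1 (0.0754) or MBV replicate 2 (0.0508). It was also lost when libraries were scaled by their total alone (adjusted p = 0.0623) or when all 9 libraries shared one fit (0.0935).

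Ecel1 and Sprr1a are known to be induced in injured neurons. Ecel1 encodes a neuronal protein of the neprilysin family of membrane peptidases, and Sprr1a a small proline-rich protein best known from the cornified envelope of epithelia. Neither passed the test, and both had their lowest means with MBV. Ecel1 (chr1:87075377-87084243, minus strand) was at 9.13, 12.01 and 13.7 CPM with PBS, 8.98, 12.2 and 7.55 CPM with fluvastatin, and 5.59, 6.49 and 13.5 CPM with MBV. MBV replicates 1 and 2 lay below all other libraries, and MBV replicate 3 lay within the PBS range. Its log2 fold change was -0.27 (SE 0.183, adjusted p = 0.339) with fluvastatin and -0.46 (SE 0.294, adjusted p = 0.294) with MBV. The latter was -0.22 (adjusted p = 0.626) without MBV replicate 1, -0.31 (adjusted p = 0.534) without MBV replicate 2 and -0.96 (adjusted p = 0.00100) without MBV replicate 3. Of 4578 exon bases, 3470 lie within the long noncoding RNA gene Gm70552 on the other strand, and the 2 cannot be told apart without strand.

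Sprr1a (chr3:92391259-92393202, minus strand) was at 5.36, 8.97 and 8.36 CPM with PBS, 8.28, 6.88 and 4.66 CPM with fluvastatin, and 4.57, 4.34 and 6.03 CPM with MBV. The 3 groups overlapped, and PBS replicate 1 lay within the range of the MBV libraries. The log2 fold change was -0.19 (SE 0.224, adjusted p = 0.586) with fluvastatin and -0.61 (SE 0.207, adjusted p = 0.0582) with MBV. With MBV it passed without PBS replicate 1 (-0.81, adjusted p = 0.0187) or without MBV replicate 3 (-0.77, adjusted p = 0.0129), and in DESeq2 (adjusted p = 0.0336), and over the 6 fits with 1 library left out it ran from -0.81 to -0.46. Sprr1a is abundant in surface epithelia, and 8 epithelial genes, among them the corneal keratin Krt12, summed to 5.52 to 9.89 CPM with PBS, 2.73 to 6.78 CPM with fluvastatin and 2.70 to 4.11 CPM with MBV. With MBV, 5 of these 8 genes were called lower and 0 higher, and with fluvastatin 1 was called lower and 0 higher. The share of all genes called lower was 14.1% with MBV and 10.2% with fluvastatin. Over the 9 libraries, the mean log2(CPM + 0.5) of these genes and the level of Sprr1a had no relation past the threshold (r = 0.42, exact permutation p = 0.254, adjusted 0.408, and rho = 0.53, exact permutation p = 0.148, adjusted 0.363, over the 45 relations of marker lists with these genes). Their r was 0.43 without the 2 libraries farthest from the median of the list, -0.27 within the fluvastatin and MBV libraries and 0.0068 over the deviations of libraries from their group means.

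**Figure D2:**
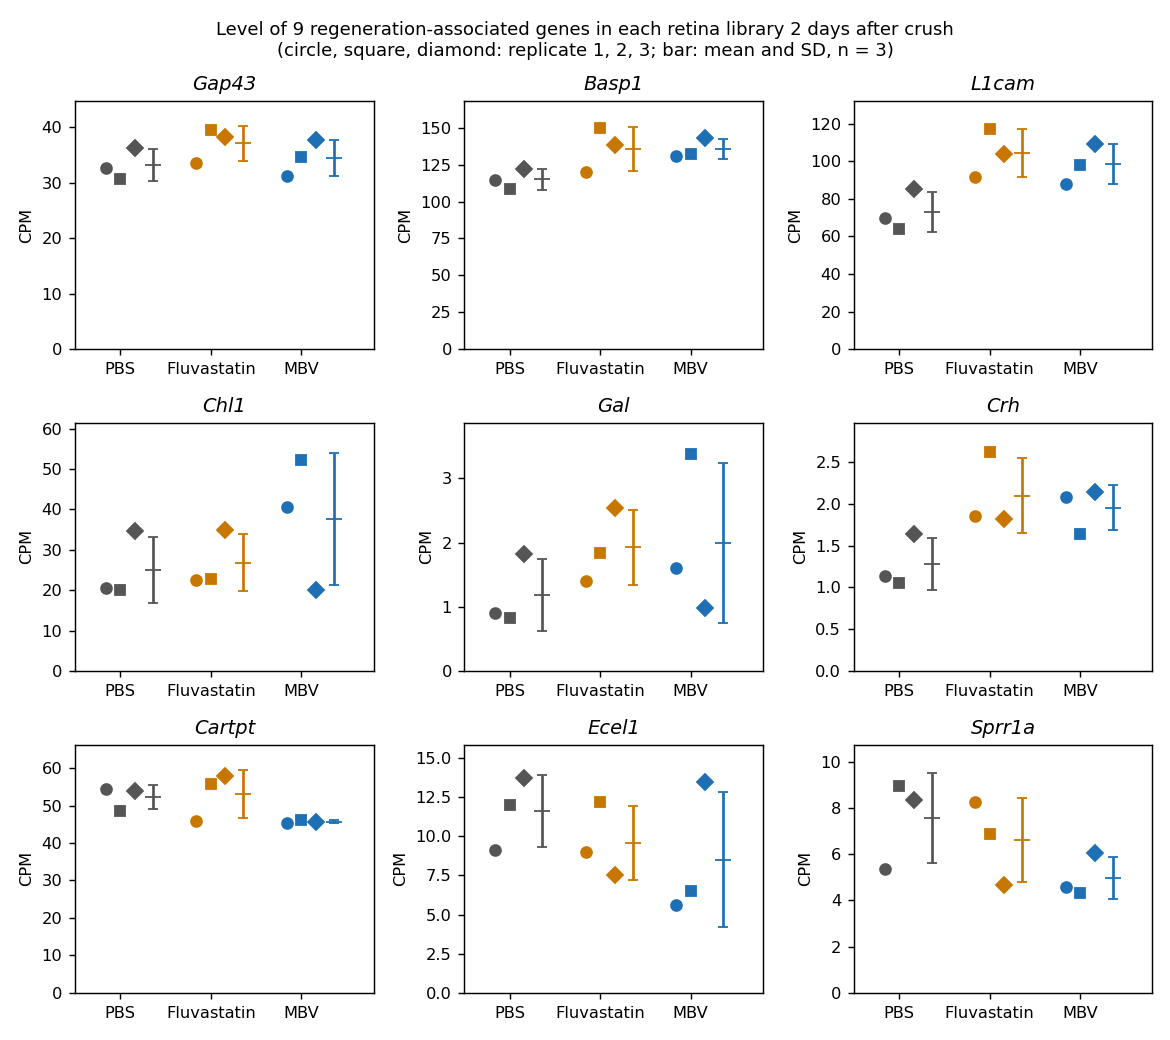
Level (CPM) of 9 genes in each library (circle, square and diamond for replicates 1, 2 and 3) with the mean and SD of 3 libraries per group. The treated libraries of L1cam and Crh all lie above PBS, those of Cartpt with MBV all lie below PBS, and Chl1, Gal and Ecel1 show MBV replicate 3 (diamond) apart from the other MBV libraries.

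Counted together, 2 of the 10 genes were called higher (L1cam and Basp1) and 0 lower with fluvastatin compared to PBS. Of all 18818 genes tested in that comparison, 19.6% were called (9.36% higher and 10.2% lower), and the share of the 10 genes lay near that background. The levels of L1cam and Crh, 2 of the 10 genes, did not overlap PBS, against 36.6% of all genes. The median log2 fold change was 0.16 over the 9 genes with a fold and -0.01 over all genes. With MBV compared to PBS, 2 were called higher (Basp1 and L1cam) and 1 lower (Cartpt), against 26.1% of 18897 genes called, 12% higher and 14.1% lower. The levels of 4 genes did not overlap PBS with MBV (Basp1, L1cam, Crh and Cartpt), against 41.3% of all genes. The median was 0.22 over the 9 genes and 0.01 over all genes. With a fold change of at least 2 asked for as well, 0 of the 10 genes were called in either comparison, against 1.17% of all genes with fluvastatin and 1.95% with MBV. Since both comparisons use the same 3 PBS libraries, they are not independent. Without PBS replicate 1 or 2, the calls of Basp1 with both treatments and of L1cam with MBV were lost. The edgeR call of L1cam with fluvastatin held (adjusted p = 0.0437 without PBS replicate 1 and 0.0295 without PBS replicate 2).

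MBV and fluvastatin were compared directly within their library set, which is free of the confounding with set. None of the 10 genes was called by edgeR, and 1 (Cartpt) had an unadjusted p under 0.05. Among all 18721 genes tested, 0.0588% were called and 10.7% had an unadjusted p under 0.05. DESeq2 also called 0 of the 10 genes. The levels of 0 of the 10 genes were apart between MBV and fluvastatin, against 16.4% of all genes. The log2 difference of Cartpt, MBV minus fluvastatin, was -0.22 (95% interval -0.40 to -0.03, adjusted p = 0.412 by edgeR). For Basp1 it was -0.01 (-0.18 to 0.17), for L1cam -0.09 (-0.31 to 0.14) and for Gap43 -0.10 (-0.30 to 0.09), so for these 3 genes a difference beyond these bounds was not seen. The intervals were wide for Chl1 (0.50, from -0.16 to 1.16), Gal (0.04, from -0.88 to 0.96), Ecel1 (-0.17, from -0.86 to 0.51) and Sprr1a (-0.41, from -0.89 to 0.07), and these data do not show whether the treatments differ in them. For Crh the difference was -0.10 (-0.61 to 0.40). With 1 library left out, the difference of Chl1 ran from 0.19 (without MBV replicate 2, adjusted p = 0.871) to 0.80 (without MBV replicate 3, adjusted p = 0.0479, the one of 6 such fits that called it).

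**Figure D3:**
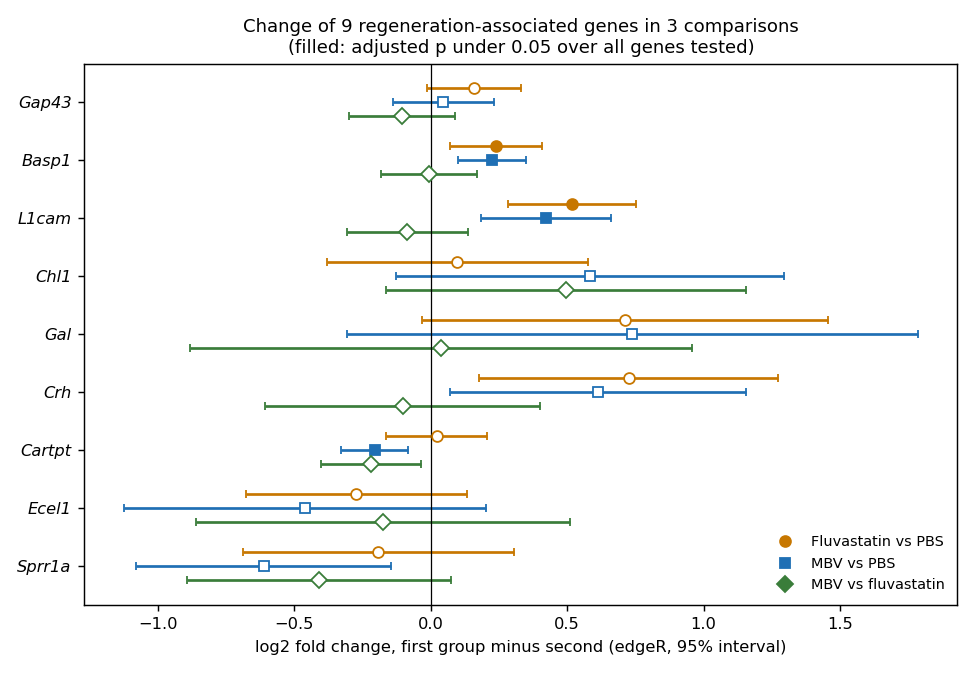
Log2 fold change with its 95% interval for 9 genes in 3 comparisons (fluvastatin and MBV against PBS, and MBV against fluvastatin), filled where the adjusted p of edgeR was under 0.05. L1cam (0.52 and 0.42) and Basp1 (0.24 and 0.22) are filled above 0 with both treatments, Cartpt (-0.20) is filled below 0 with MBV, and no marker is filled between MBV and fluvastatin.

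Some of the genes moved together from library to library. Relations were computed on log2(CPM + 0.5) over the 9 libraries for all 36 pairs of the 9 genes with enough counts, with exact permutation p-values and Benjamini-Hochberg adjustment over the 36. The 9 libraries share a normalization and include the treatment differences described above. The permutations, here and for the marker lists, exchanged libraries across groups, so the p-values take these differences in. Values within the fluvastatin and MBV set (6 libraries) are therefore given as well. Of the set with PBS, only the 3 PBS libraries were used, too few for its own value. Basp1 and L1cam had the closest relation, with Pearson's r = 0.95 (exact permutation p = 7.72e-05, adjusted 0.00278) and Spearman's rho = 0.95 (exact permutation p = 0.000353, adjusted 0.0127). Their r was 0.91 without the 2 libraries farthest from the median of Basp1 and 0.88 within the fluvastatin and MBV set. Gap43 and L1cam had r = 0.83 (exact permutation p = 0.00555, adjusted 0.0399) and rho = 0.85 (0.00607, adjusted 0.0547), with r = 0.66 without the 2 farthest libraries and 0.96 within the set. The relation of Gap43 and Basp1 did not pass the threshold after adjustment (r = 0.80, exact permutation p = 0.0127, adjusted 0.0765, and rho = 0.85, exact permutation p = 0.00607, adjusted 0.0547). Their r was 0.59 without the 2 libraries farthest from the median of Gap43 and 0.78 within the set. Within each of the 3 groups, Gap43, Basp1 and L1cam put the 3 libraries in the same order.

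Chl1 and Gal were related as well, with r = 0.85 (exact permutation p = 0.00338, adjusted 0.0304) and rho = 0.83 (exact permutation p = 0.00827, adjusted 0.0595). Their r was 0.85 without the 2 libraries farthest from the median of Chl1 and 0.81 within the fluvastatin and MBV set, and both genes ordered the 3 libraries alike in each group. The relation of Gal and L1cam did not pass the threshold (r = 0.55, exact permutation p = 0.125, adjusted 0.409, and rho = 0.58, exact permutation p = 0.108, adjusted 0.299). L1cam and Crh had r = 0.91 (exact permutation p = 0.00117, adjusted 0.0140) and rho = 0.85 (exact permutation p = 0.00607, adjusted 0.0547), but r was lower, at 0.68, without the 2 farthest libraries and 0.58 within the set. Basp1 and Crh had r = 0.89 (exact permutation p = 0.00116, adjusted 0.0140) and rho = 0.82 (exact permutation p = 0.0108, adjusted 0.0646). Their r was 0.74 without the 2 libraries farthest from the median of Basp1 and 0.67 within the set.

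The same libraries were then compared by the mean level of marker lists (45 relations of 5 lists with 9 genes, exact permutation tests). The RGC list (Rbpms, Thy1, the Pou4f factors, the neurofilaments and others) followed Gap43, L1cam and Basp1. It was related to Gap43 with r = 0.93 (exact permutation p = 9.65e-05, adjusted 0.00217) and rho = 0.97 (exact permutation p = 0.000165, adjusted 0.00675), with r = 0.88 without the 2 libraries farthest from the median of the list and 0.94 within the fluvastatin and MBV set. With L1cam its r was 0.90 (exact permutation p = 0.00127, adjusted 0.00815) and its rho 0.93 (0.000750, adjusted 0.00675), and r was 0.75 and 0.91 in those subsets. With Basp1 its r was 0.90 (exact permutation p = 0.00109, adjusted 0.00815) and its rho 0.93 (0.000750, adjusted 0.00675), and r was 0.74 and 0.81. Each of these 3 genes was also related to the 7 amacrine markers, with r of 0.88 for Gap43, 0.91 for Basp1 and 0.85 for L1cam (exact permutation p = 0.00114, 0.000628 and 0.00329, adjusted 0.00815, 0.00707 and 0.0165). The rho values were 0.93, 0.90 and 0.83 (adjusted exact permutation p = 0.00675, 0.0130 and 0.0413), and r was 0.78, 0.80 and 0.66 without the 2 farthest libraries and 0.89, 0.94 and 0.93 within the set. Both lists moved with these genes, and the data do not tell the cell types apart. With fluvastatin compared to PBS, 4 of the 12 RGC markers were called higher and 0 lower, led by the heavy neurofilament Nefh (log2 fold change 1.07, adjusted p = 0.000690), Sncg (0.57), Thy1 (0.44) and Nrn1 (0.29). With MBV 1 of 12 was called higher, Nefh (0.94, adjusted p = 0.000531), and 0 lower. Of the amacrine markers 2 of 7 were called higher with fluvastatin (Slc6a9 and Tfap2a) and 1 with MBV (Slc6a9), with 0 lower. The share of all genes called higher was 9.36% with fluvastatin and 12% with MBV. The part of these shifts in the levels of L1cam and Basp1 was not tested.

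Gal and Chl1 followed the transcription factors that switch on after axon injury (Atf3, Jun, Sox11, Klf6 and Stat3, the 5 measured here). The relation with Gal had r = 0.95 (exact permutation p = 7.72e-05, adjusted 0.00217) and rho = 0.95 (exact permutation p = 0.000353, adjusted 0.00675), and r was 0.94 without the 2 farthest libraries and 0.95 within the fluvastatin and MBV set. For Chl1 it was r = 0.89 (exact permutation p = 0.00194, adjusted 0.0109) and rho = 0.90 (exact permutation p = 0.00203, adjusted 0.0130), with 0.93 in both subsets. With the RGC list, Gal had r = 0.51 (exact permutation p = 0.156, adjusted 0.334) and rho = 0.72 (exact permutation p = 0.0369, adjusted 0.138), and Chl1 had r = 0.12. With the injury factors, r was 0.43 for Gap43, 0.56 for Basp1 and 0.62 for L1cam. None of these passed the threshold after adjustment, and differences between relations were not tested. Sprr1a showed no relation to the injury transcription factors past the threshold (r = -0.51, exact permutation p = 0.167, adjusted 0.341, and rho = -0.57, exact permutation p = 0.121, adjusted 0.339). In the comparisons with PBS, of the 5, Klf6 was called, higher by 0.36 (adjusted p = 0.0396) with fluvastatin and by 0.50 (adjusted p = 0.0297) with MBV. This 1 of 5 lay near or below the share of all genes called, 19.6% with fluvastatin and 26.1% with MBV. Atf3, Jun, Sox11 and Stat3 were not called, and with MBV Sox11 had a negative value (-0.09) and the others positive ones. The photoreceptor list ran opposite to Chl1 (r = -0.92, exact permutation p = 0.000378, adjusted 0.00566, and rho = -0.88, exact permutation p = 0.00308, adjusted 0.0173), with r = -0.76 without the 2 farthest libraries and -0.95 within the set. Its relation with Gal had the same sign but did not pass the threshold after adjustment (r = -0.78, exact permutation p = 0.0118, adjusted 0.0530, and rho = -0.77, exact permutation p = 0.0214, adjusted 0.0963), with r = -0.68 without the 2 farthest libraries and -0.80 within the set. The 4 photoreceptor genes summed to 11252 and 9904 CPM in MBV replicates 1 and 2 and to 14021 CPM in MBV replicate 3, and 2 of the 4 were called lower with MBV compared to PBS (Sag and Pde6b). With fluvastatin, 1 of the 4 was called lower (Sag) and 1 higher (Rcvrn). The share of all genes called lower was 14.1% with MBV and 10.2% with fluvastatin. The part of the photoreceptor shift in the levels of Chl1 and Gal was not tested.

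**Figure D4:**
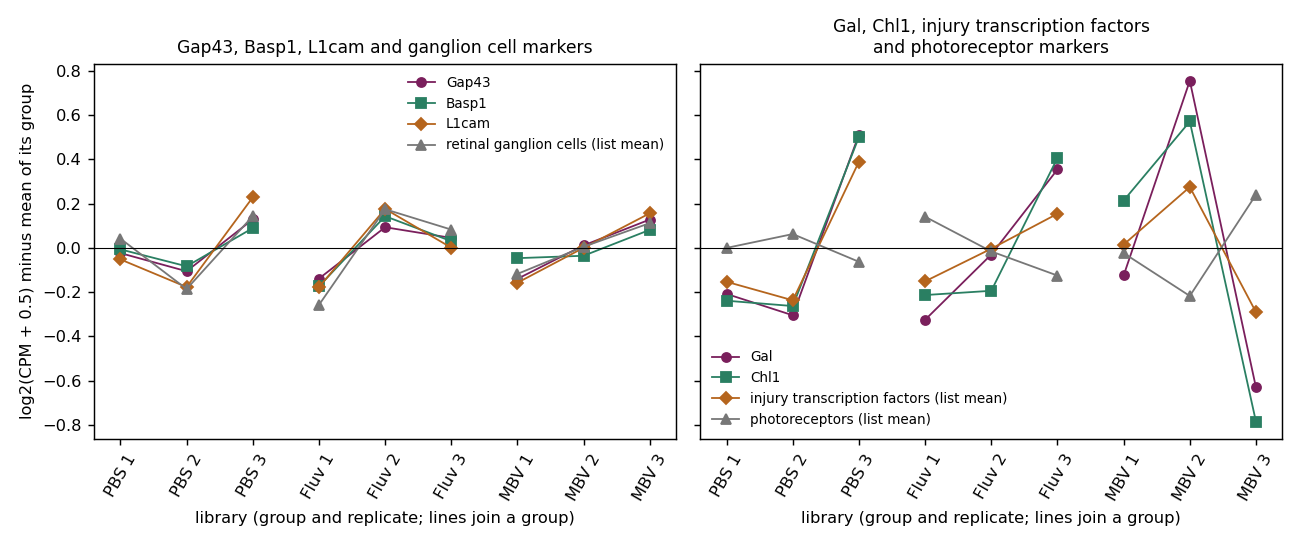
Deviation of each library from the mean of its group, on the log2(CPM + 0.5) scale, with lines joining the 3 libraries of a group. On the left, Gap43, Basp1 and L1cam rise and fall with the mean of 12 RGC markers. On the right, Gal and Chl1 follow the mean of 5 injury transcription factors and run opposite to 4 photoreceptor markers, most clearly in MBV replicate 3.

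The genes whose pattern over the 9 libraries was most like that of a given gene were sought among 13971 genes with a mean of at least 1 CPM, by Pearson's r of log2(CPM + 0.5), as a description. For Gap43 they were Prune2 (0.98), Gpr26 (0.97) and Gaa (0.96). For Gal they were Fam43b (0.98), Asf1b (0.97) and Bag3 (0.97). For Crh they were Gbp4 (0.97), Sgsm1 (0.96) and Xpnpep1 (0.95).

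Other genes of the same program were taken from a list of 19 further regeneration-associated effectors (tubulins, stathmins, peptides, adhesion and surface proteins). The list was chosen with earlier results of these data known, so its shares do not test an excess over all genes. With fluvastatin compared to PBS, 5 of the 19 were called higher and 0 lower, against 9.36% of all genes called higher and 10.2% lower. They were led by Marcksl1, a relative of the MARCKS protein at the membrane (log2 fold change 0.42, adjusted p = 0.00135), Npy, neuropeptide Y (0.77, adjusted p = 0.00274), the stathmin Stmn4 (0.45, adjusted p = 0.0145) and the neuronal tubulin Tubb3 (0.45, adjusted p = 0.0158). With MBV compared to PBS, 4 were called higher, Npy (0.97, adjusted p = 0.000814), Marcksl1 (0.43, adjusted p = 0.00104), Tubb3 (0.35, adjusted p = 0.0160) and the tubulin Tuba1a (0.18, adjusted p = 0.0385). Called lower was 1, Flrt3, a leucine-rich repeat membrane protein (-0.20, adjusted p = 0.0434). Over all genes, 26.1% were called with MBV, 12% higher and 14.1% lower, and the 5 of 19 lay near that background. The median over the list was 0.10 with fluvastatin and 0.07 with MBV. None was called between MBV and fluvastatin, where the median was -0.03.

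Receptors, binding partners and relatives of the 10 genes formed a list of 15. It was chosen with earlier results of these data known, so its shares do not test an excess over all genes. Of the 15, 13 had counts, and Ucn3 and Sprr1b had 0 counts in all 9 libraries. With fluvastatin, 4 were called higher and 0 lower, against 9.36% of all genes called higher and 10.2% lower. They were Ank3, which encodes the ankyrin of axon initial segments (0.30, adjusted p = 0.00160), Nfasc, the L1 family member neurofascin (0.33, adjusted p = 0.00337), and the endothelin-converting enzymes Ece1 (0.22, adjusted p = 0.0211) and Ece2 (0.31, adjusted p = 0.0341). With MBV the list had 5 called higher and 0 lower, against 12% of all genes called higher and 14.1% lower. They were Nfasc (0.48, adjusted p = 0.000498), Ank3 (0.45, adjusted p = 0.00112), Ece1 (0.28, adjusted p = 0.00605), Ece2 (0.32, adjusted p = 0.00908) and Ucn2 (1.63, adjusted p = 0.0162). Ucn2, a relative of Ucn and Crh, is named after its values were seen and rests on 48 counts with MBV and 18 with PBS. With fluvastatin the value of Ucn2 was 1.39 (41 counts) and was not called (adjusted p = 0.0608). The L1 family member Nrcam was not called (0.05 with fluvastatin and 0.16 with MBV, adjusted p = 0.627 and 0.0751). Crhbp, also named after its values were seen, had negative values and was not called (-0.90 with fluvastatin and -1.40 with MBV, adjusted p = 0.166 and 0.0711). The receptors Galr1, Galr2, Galr3, Crhr1 and Crhr2 did not pass the test in any comparison. The median over the 13 genes was 0.31 with fluvastatin and 0.32 with MBV, and none was called between MBV and fluvastatin.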

How the data were processed

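Total RNA of whole retinas was sequenced in paired 75-base reads (TruSeq Total RNA libraries). Per the labels and the paper's methods, the authors aligned reads to GRCm39 in CLC Genomics Workbench and deposited 4 tables of raw read counts per gene, not normalized, with their own fold changes and p-values, which were not used. Count columns naming a library were used for 9 of 12 libraries, taken from 3 tables. 9 repeated columns held identical values. The 6 count columns without a library name were not used, so planned comparisons with the combined treatment and those balanced over library sets were not run. Strand use in counting is not given in the sources used here.

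Genes with at least 1 count in 1 library were scaled by TMM and tested with edgeR 4.0.16 (R 4.3.3), by the quasi-likelihood test on 2 groups at a time. p-values were adjusted over all genes, with a threshold of 0.05. The code was tested on simulated data. DESeq2 1.42.0, other scalings, a filter of 10 counts in 2 libraries, a replicate block and left-out libraries were alternatives. The common dispersion of the edgeR fits, pooled over all genes, gave a coefficient of variation of 7.78% to 10.1%. For single genes it differed: within a group, CPM varied by 0.867% for Cartpt with MBV and by 62.4% for Gal with MBV. Totals of 21349516 to 30992040 counts leave a gene of under 10 summed counts per group with no fold, and such limits cover counting error only. Exon lengths and overlaps came from GENCODE M39, promoters from RefSeq (GRCm38.p6). Relations over libraries used exact permutation tests (scipy 1.17.1, Python 3.11.15).

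The 10 genes and the 10 gene lists were chosen with earlier results of these data known. One photoreceptor marker is not reported here and was left out of its list. Named beside the 10 genes are, per list, up to 4 called genes with the smallest adjusted p in each direction, and for Gal, Crh and Gap43 the 3 most like genes. Other genes named are so marked or are list markers.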

Additional observations from a re-analysis of the deposited data

How the results depend on the processing

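L1cam with fluvastatin compared to PBS was called in all fits tried except where a fold change of at least 2 was asked for as well. The number of genes called higher with fluvastatin (2) was 1 with library size only or with at least 10 counts in 2 libraries, 0 with a fold of at least 2, and 1 to 4 when 1 library was left out. With MBV the number higher (2) was 0 with a fold of at least 2 and 0 to 3 when 1 library was left out. The number lower with MBV (1) was 2 by DESeq2, 0 with library size only, 0 in 1 fit of all 9 libraries, 0 with a fold of at least 2, and 0 to 3 when 1 library was left out. Between MBV and fluvastatin, the number higher (0) was 0 to 1 when 1 library was left out. Where an arm kept 2 libraries, the spread was pooled.

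Replicate numbers did not pair the samples: same-number correlations of deviations were -0.43 to 0.19. With the replicate block, the number lower with MBV was 0 (Cartpt, adjusted p = 0.0541), and Gal between MBV and fluvastatin turned to -0.042. Over all genes, 11 were called between MBV and fluvastatin by edgeR, 122 by DESeq2, 38 in 1 fit of all 9 libraries, 5 with at least 10 counts in 2 libraries and 0 with the block, and 0 to 197 with 1 library left out.

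Log2 fold changes whose direction turned when 1 library was left out were, with fluvastatin compared to PBS, Chl1 (-0.14 to 0.40), Cartpt (-0.043 to 0.12) and Sprr1a (-0.39 to 0.0027). With MBV compared to PBS it was Gap43 (-0.023 to 0.11). Between MBV and fluvastatin they were Basp1 (-0.088 to 0.069, and 0.022 with library size only), L1cam (-0.17 to 0.0083), Gal (-0.56 to 0.36), Crh (-0.20 to 0.091) and Ecel1 (-0.67 to 0.060). The cause of these turns was not tested, and none of these values was called. Calls of all genes also moved: with 1 library left out, 1726 to 4402 genes were called with fluvastatin (3687 with all libraries) and 2711 to 5664 with MBV (4937). Ucn had too few counts for a fold.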
